A study of Mus musculus with 4 samples.

Results

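Transcripts for 45 proteins that hepatocytes secrete into plasma, among them albumin, carriers, clotting factors, protease inhibitors, complement components and apolipoproteins, were examined in mouse RNA-seq libraries labelled as liver. The genes were listed by symbol, with no threshold on their values. Of the 45, 40 had a row among the 15500 genes of the expression table, and Apoa4, Apoc3, F7, Itih1 and Serpina1a had none. The table holds 4 libraries labelled as livers of Kunming mice, 1 for each condition, and the levels of most hepatocyte enzymes in them, given further on, go against that label. Every diet held a fatty acid at 1.5% (w/w), and the feeding lasted 28 days. It was linoleic acid in Vehicle and GW6471, and conjugated linoleic acid (CLA, in the study's methods an equal mixture of the c9t11 and t10c12 isomers) in CLA and CLA+GW6471. GW6471, an antagonist of the lipid-sensing nuclear receptor PPARα, was injected intraperitoneally at 20 mg/kg in GW6471 and CLA+GW6471, daily as the labels give it for the former, and vehicle injections were applied when appropriate. The methods describe male mice bought at 5 weeks of age and sampled at zeitgeber time 8 for Vehicle and CLA. They do not describe the groups with GW6471, for which the labels are the source. The groups had 6 mice each, and the sources used here do not say how many mice stand behind a library.

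The liver makes most of the protein in blood plasma. Hepatocytes release albumin, which carries fatty acids and hormones and holds water in the vessels, together with transferrin for iron, transthyretin and retinol-binding protein for thyroid hormone and vitamin A, and the clotting and complement proteins. Apolipoproteins coat the particles that move triglyceride and cholesterol. These genes are under the control of transcription factors enriched in liver, such as the HNF1, HNF4 and C/EBP families. Afp, the fetal counterpart of albumin, is normally low in the adult liver.

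The values are FPKM, fragments per kilobase of transcript and of sequencing depth, which can be compared between genes because they are scaled to length. Because each condition is a single library, the spread between animals is unknown, no test between conditions was possible and every difference describes these libraries. The depth, estimated from the steps between low values of short genes, was 18770000 reads in Vehicle, 18780000 in CLA, 19090000 in GW6471 and 19260000 under CLA+GW6471. In bulk RNA, fewer cells of a type and less RNA per cell cannot be told apart. The label of liver was checked against 20 hepatocyte enzymes and transporters, of which 14 had a row, 11 lay under 1 FPKM and 9 under 0.1 FPKM on average. Cyp2e1 averaged 0.065 and Cps1 0.018 FPKM, while Glul, at 83.1 FPKM, Ass1, at 21.1, and Fah, at 8.82, were the highest. Most of these markers, 11 of 14, were thus near 0, which goes against the label of liver, while Alb was high, and Afp and Dcn averaged 660 and 1323 FPKM. The levels reported here are those of the libraries as deposited, and whether the material was liver tissue cannot be settled from the table. Markers of endothelium had sums of 0.51 to 0.96 FPKM and those of lymphocytes and erythroid cells 1.92 to 2.19 FPKM in the 4 libraries.

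Promoter sequence is shown for the neighbours Alb and Afp, both high here, and for Fga and Fgb, which encode chains of the same protein and lay far apart in level. Each line gives the 150 bases before the start of the gene in RefSeq, 5′ to 3′ on the strand of the gene, placed in the mm9 genome assembly by an exact match. Capitals mark the letters GTTAATNAT (HNF1) and TTGCNNAA (C/EBP) on either strand.
Alb, chr5:90889746-90889895, plus strand: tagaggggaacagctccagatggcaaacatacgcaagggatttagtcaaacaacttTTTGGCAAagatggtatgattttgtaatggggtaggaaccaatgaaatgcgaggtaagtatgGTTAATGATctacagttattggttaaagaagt
Afp, chr5:90919590-90919739, plus strand: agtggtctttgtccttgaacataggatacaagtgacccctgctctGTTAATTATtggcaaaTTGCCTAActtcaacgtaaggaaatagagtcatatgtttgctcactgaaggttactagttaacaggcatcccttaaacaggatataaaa
Fga, chr3:82829925-82830074, plus strand: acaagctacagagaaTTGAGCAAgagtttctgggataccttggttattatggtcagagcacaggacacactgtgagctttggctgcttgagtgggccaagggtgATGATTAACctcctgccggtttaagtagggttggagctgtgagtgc
Fgb, chr3:82853786-82853935, minus strand: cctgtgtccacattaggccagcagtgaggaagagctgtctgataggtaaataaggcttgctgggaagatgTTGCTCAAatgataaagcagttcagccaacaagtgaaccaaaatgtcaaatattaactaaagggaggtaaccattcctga
Counted from the start in RefSeq, the HNF1 letters begin at position -32 in Alb, at -105 in Afp and at -46 in Fga. The printed stretch of Fgb does not hold them. For Alb and Fgb, the start in RefSeq differs from that of the mm9 spans given further on.

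The windows from 250 bases before to 50 bases after the start were available for 35 of the 45 genes. The letters GTTAATNAT stood in the windows of 4 of these 35 genes, Alb, Afp, Cp and Fga, and in 0.801% of all 32851 promoter windows. The level of these 4 genes ran from 0.055 FPKM in Fga to 922 FPKM in Alb. TTGCNNAA stood in the windows of 16 of the 35 genes and in 10.8% of all windows. Its genes included Rbp4 and Itih2, which were high, and Ahsg and Serpinc1, which were under 1 FPKM. The TATA box letters TATAAA were found in 10 of the 35 genes and in 13.6% of all windows, and CAAAGTCCA (HNF4) in 0 of the 35 and in 0.475%. The 4 motifs were searched on both strands. A match is a run of letters and not a site of binding.

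The genes fell into a small group at very high levels and a large group near 0. Of the 40 genes with a row, 6 averaged at least 100 FPKM, 4 lay between 10 and 100, 5 between 1 and 10, and 25 under 1 FPKM. Their median was 0.444 FPKM, against 5.97 FPKM over all 15500 genes. At least 1 FPKM was reached by 37.5% of them and by 66.8% of all genes, and at least 100 FPKM by 15% of them and by 4.85% of all genes. The 6 highest, Apoe, Rbp4, Alb, Afp, Itih2 and Trf, made up 96.0% to 96.9% of the summed FPKM of all 40 in each library. The plot of levels by gene shows this spread, and the rank plot sets it beside all genes.

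**Figure D1:**
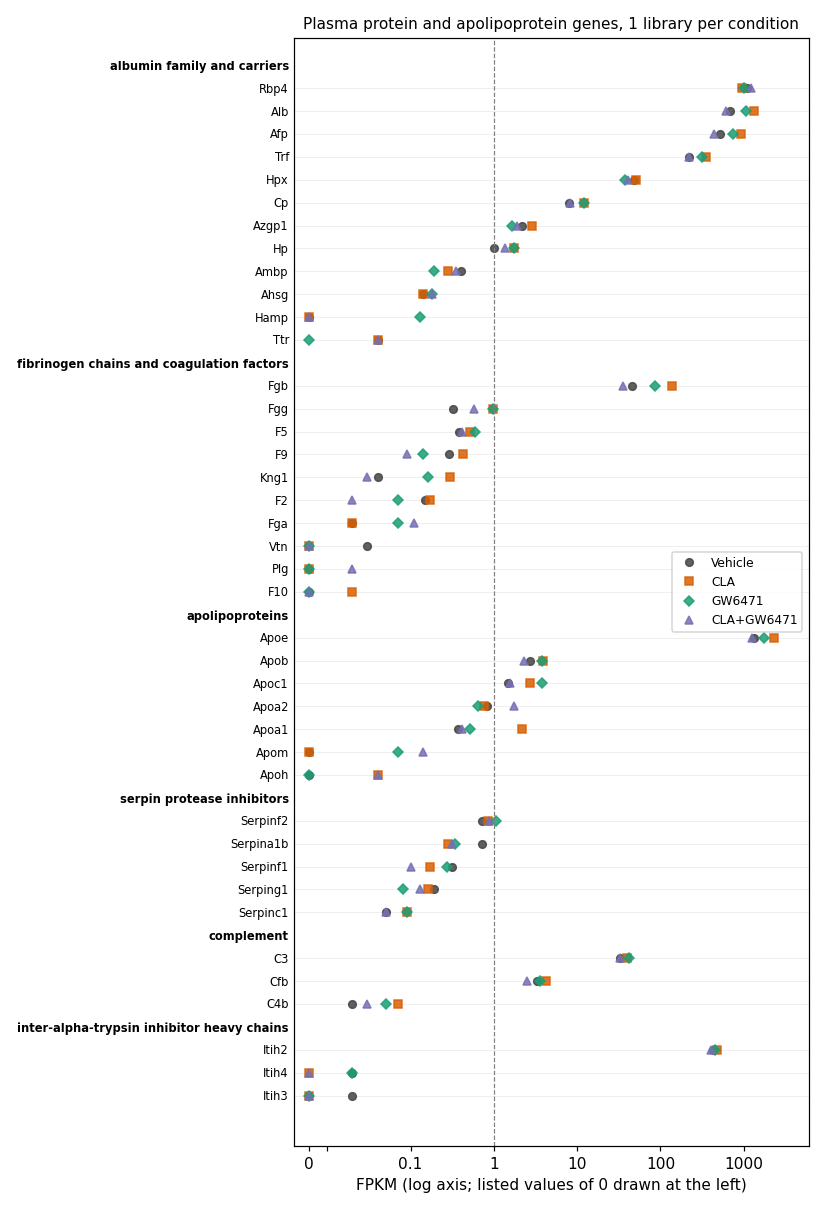
FPKM of the 40 genes with a row (log axis, values of 0 drawn at the left), grouped by role, with 1 point for each of the 4 libraries; the dashed line marks 1 FPKM. Apoe, Rbp4, Alb, Afp, Itih2 and Trf lie above 100 FPKM in every library, and 25 genes average under 1 FPKM.

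**Figure D2:**
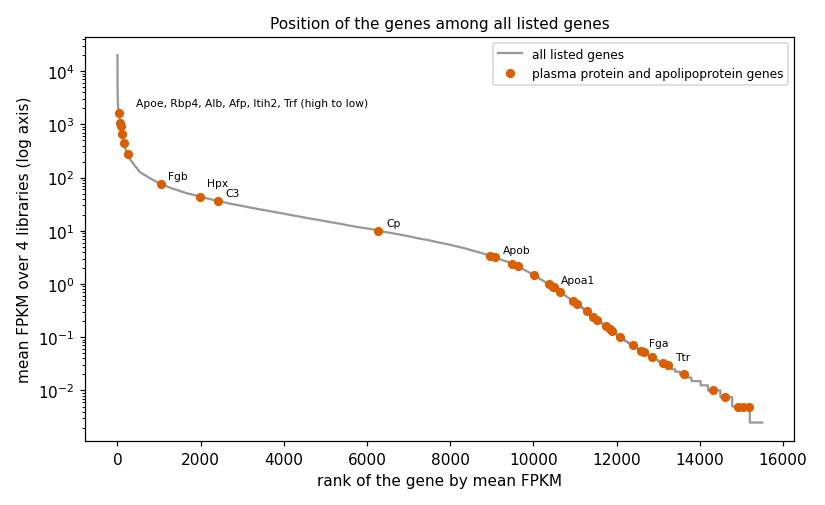
Mean FPKM over the 4 libraries (log axis) of all 15500 listed genes in order of rank (grey line), with the 40 plasma protein and apolipoprotein genes as points. The points gather at the upper left, from 277 to 1656 FPKM, and along the lower tail under 1 FPKM.

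Among albumin and the carriers, Alb had 679.53 FPKM in Vehicle, 1321.55 in CLA, 1067.32 in GW6471 and 620.17 under CLA+GW6471. Afp, its neighbour on chromosome 5, had 521.63, 936.59, 738.91 and 442.72 FPKM in the same order. The CLA and GW6471 libraries were the high ones for both genes, and the level of Alb was 1.30 to 1.44 times that of Afp in every library. Trf, which encodes transferrin, the iron carrier, had 221.83 FPKM in Vehicle, 351.19 in CLA, 316.42 in GW6471 and 219.56 under CLA+GW6471. Its span on chromosome 9 overlaps that of Srprb, so that its value is uncertain to that extent. Rbp4, the retinol carrier, ran the other way, with 1081.80 FPKM in Vehicle, 959.15 in CLA, 1008.03 in GW6471 and 1239.35 under CLA+GW6471.

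Transthyretin travels in plasma in a complex with retinol-binding protein, and its gene Ttr stood at 0.04 FPKM in Vehicle, CLA and CLA+GW6471 and was listed at 0 in GW6471. A value of 0.04 FPKM corresponds to about 1 read at the estimated depth. Hpx, which encodes the haem carrier hemopexin, was at 47.64, 50.61, 37.23 and 40.73 FPKM in Vehicle, CLA, GW6471 and CLA+GW6471. Cp, for the copper-bearing ferroxidase ceruloplasmin, had 7.96 FPKM in Vehicle, 12.14 in CLA, 11.99 in GW6471 and 8.22 under CLA+GW6471. Here CLA and GW6471 again stood above the other libraries, and the span of Cp on chromosome 3 overlaps that of Hps3.

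The rest of the carriers were low. Hp, for the haemoglobin scavenger haptoglobin, had 1.01 FPKM in Vehicle, 1.75 in CLA and in GW6471 and 1.36 in CLA+GW6471. Azgp1, a zinc-binding glycoprotein linked to lipid mobilisation, had 2.15, 2.86, 1.67 and 1.87 FPKM in Vehicle, CLA, GW6471 and CLA+GW6471. Ambp, the precursor of alpha-1-microglobulin and bikunin, averaged 0.305 FPKM, and Ahsg, for fetuin-A, an inhibitor of calcification, averaged 0.16 FPKM. Hamp, the iron hormone hepcidin, was listed at 0 in all libraries except GW6471, where it had 0.13 FPKM, about 1 read.

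Fibrinogen, the precursor of the clot, is assembled from equal numbers of alpha, beta and gamma chains, and the levels of the chain genes were far from equal. Fgb, the beta chain, had 45.22 FPKM in Vehicle, 138.03 in CLA, 86.43 in GW6471 and 35.68 under CLA+GW6471. Fgg, the gamma chain, had 0.32, 0.98, 0.97 and 0.58 FPKM in that order, and Fga, the alpha chain, had 0.02, 0.02, 0.07 and 0.11 FPKM. Fgb was thus 61.5 to 141 times Fgg in the 4 libraries and 324 times Fga or more in each, a quotient that counting error leaves loose, since Fga rests on about 1 to 6 reads. Vehicle was the lowest library for Fgg and one of the lowest for Fga, with estimated reads of 10 in Vehicle and 32 in CLA for Fgg and of 1 and 1 for Fga. The chain genes lie within 41.9 kb of chromosome 3, Fgg from 82811781 to 82818975, Fga from 82830075 to 82838036 and Fgb from 82846169 to 82853725 (mm9).

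The coagulation factors were all under 1 FPKM on average. F5, the cofactor of the prothrombinase complex, was the highest, between 0.38 FPKM in Vehicle and 0.60 in GW6471. F9 lay between 0.09 FPKM in CLA+GW6471 and 0.42 in CLA, and F2, for prothrombin, between 0.02 in CLA+GW6471 and 0.17 in CLA. Kng1, the bradykinin precursor kininogen, had 0.30 FPKM in CLA and 0.16 in GW6471, against 0.04 in Vehicle and 0.03 in CLA+GW6471. This corresponds to about 13, 7, 2 and 1 reads. F10, Plg (plasminogen) and Vtn (vitronectin, an adhesive plasma protein) were listed at 0 in 3 of the 4 libraries each, and their highest values were 0.02, 0.02 and 0.03 FPKM, about 1 read.

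The serpins, a family that includes inhibitors of plasma proteases, were low in every library. Serpinf2, for alpha-2-antiplasmin, averaged 0.873 FPKM and ranged from 0.71 in Vehicle to 1.07 in GW6471. Serpina1b, one of the mouse alpha-1-antitrypsin genes, had 0.72 FPKM in Vehicle and 0.28 to 0.34 in the other libraries, about 19 reads against 7 to 9. Its reads are uncertain, because its copies in the genome are near-identical. Serpinf1, for the factor PEDF, averaged 0.213 FPKM, Serping1, the inhibitor of complement C1, 0.14 FPKM, and Serpinc1, for antithrombin, 0.07 FPKM.

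Among the apolipoproteins, Apoe, the ligand that clears remnant particles through the LDL receptor family, was the highest gene of the whole set. It had 1321.20 FPKM in Vehicle, 2298.35 in CLA, 1761.77 in GW6471 and 1241.57 under CLA+GW6471. Apob, the structural protein of very-low-density lipoprotein, had 2.71, 3.93, 3.81 and 2.28 FPKM in the same order. Both were high in CLA and GW6471 and low in Vehicle and CLA+GW6471. Apoc1, which modulates lipoprotein uptake, had 1.46 FPKM in Vehicle, 2.69 in CLA, 3.80 in GW6471 and 1.57 under CLA+GW6471.

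The proteins of high-density lipoprotein were near the limit of the depth. Apoa1, its main protein, had 2.15 FPKM in CLA, about 42 reads, and 0.37 in Vehicle, 0.52 in GW6471 and 0.41 in CLA+GW6471, about 7, 10 and 8 reads. CLA was the high library for this gene, with a log2 ratio of FPKM + 0.1 to Vehicle of 2.26 (95% counting interval 1.42 to 3.98). With a mean of 0.863 FPKM it lies below the 1 FPKM required for a call further on, so it enters no count there. Apoa2 had 1.73 FPKM in CLA+GW6471 and 0.65 to 0.82 in the other libraries, about 17 reads against 6 to 8. Apom, a carrier of sphingosine-1-phosphate, was listed at 0 in Vehicle and CLA and had 0.07 FPKM in GW6471 and 0.14 in CLA+GW6471. Apoh, which binds phospholipids, had 0.04 FPKM in CLA and CLA+GW6471 and was listed at 0 in Vehicle and GW6471.

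Neighbouring genes differed widely in level at the fibrinogen locus, given above, and at the Apoe locus. The Apoe cluster spans 27.6 kb of chromosome 7, from 20256928 to 20284515 (mm9), and its genes averaged 1656 FPKM for Apoe, 2.38 for Apoc1, 51.3 for Apoc4 and 18.5 for Apoc2. The spans of Apoc4 and Apoc2 overlap, which makes their values uncertain. The Apoa1 cluster spans 43.3 kb of chromosome 9, from 46036663 to 46080002. There Apoa1 averaged 0.863 FPKM and Apoa5 0.0475 FPKM, and Apoc3 and Apoa4 had no row. Alb (90889915 to 90905629) and Afp (90919740 to 90937933) were high together within 48.0 kb of chromosome 5. The plot of neighbouring genes shows each locus.

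**Figure D3:**
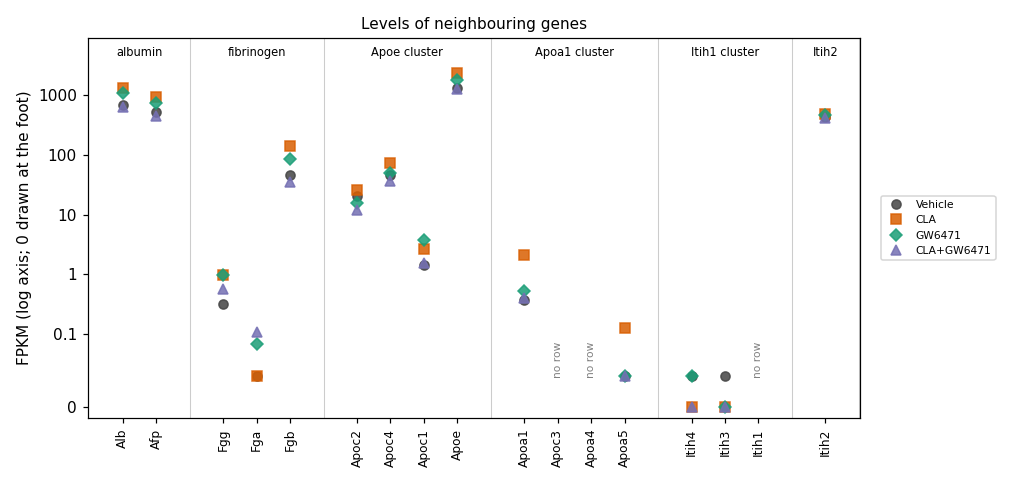
FPKM (log axis, values of 0 drawn at the foot) of genes that lie side by side in mm9, with 1 point for each of the 4 libraries; genes without a row are marked. Fgb stands at 35.68 to 138.03 FPKM beside Fga at 0.02 to 0.11, and Apoe at 1241.57 to 2298.35 beside Apoc1 at 1.46 to 3.80.

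Complement C3, the protein on which the activation pathways meet, had 33.07 FPKM in Vehicle, 39.36 in CLA, 41.74 in GW6471 and 32.91 under CLA+GW6471. Cfb, the protease of the alternative pathway, had 3.30, 4.27, 3.61 and 2.51 FPKM in that order, and its span overlaps that of Gm20547. C4b, of the classical pathway, had 0.02 to 0.07 FPKM, about 2 to 7 reads, and its reads are uncertain because a near-identical copy exists. The inter-alpha-trypsin inhibitor heavy chains bind hyaluronan. Itih2 had 430.15 FPKM in Vehicle, 478.78 in CLA, 456.13 in GW6471 and 407.17 under CLA+GW6471, a narrow range in which the highest library was 1.18 times the lowest. Itih3 and Itih4, neighbours on chromosome 14, reached at most 0.02 FPKM, about 1 read, in any library. Itih2 lies apart from them on chromosome 2, from 10016218 to 10053023 (mm9).

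The share of the summed FPKM of a library that fell to the 40 genes was 0.86% in Vehicle, 1.26% in CLA, 1.12% in GW6471 and 0.827% under CLA+GW6471. The CLA and GW6471 libraries were higher than Vehicle and CLA+GW6471. Without Alb the shares were 0.728%, 1.01%, 0.901% and 0.708%, in the same order. The plot of profiles shows that Fgb differed most between libraries among the genes of at least 10 FPKM, where its highest value was 3.87 times its lowest. The same quotient was 2.13 for Alb, 2.12 for Afp, 1.85 for Apoe, 1.60 for Trf and 1.53 for Cp. It was 1.36 for Hpx, 1.29 for Rbp4 and 1.27 for C3.

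**Figure D4:**
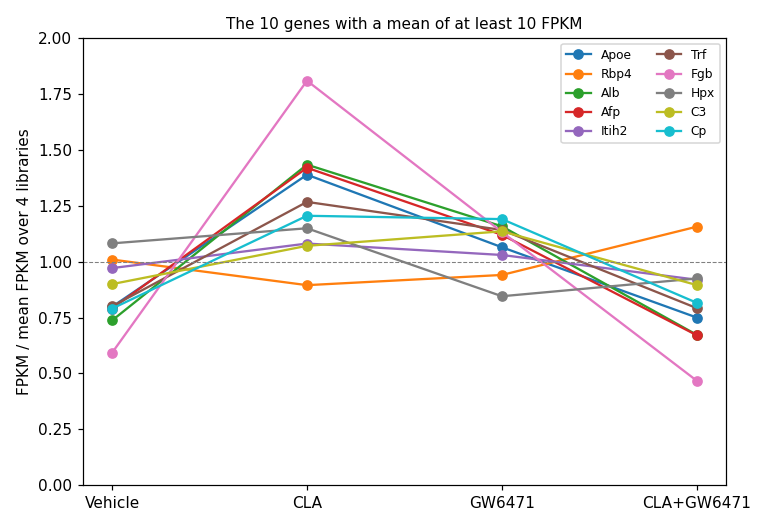
FPKM in each library divided by the mean over the 4 libraries, for the 10 genes with a mean of at least 10 FPKM; lines join the libraries of 1 gene. Fgb, Alb, Afp, Apoe, Trf and Cp lie above 1 in CLA and GW6471 and below 1 in Vehicle and CLA+GW6471, whereas Rbp4 lies lowest in CLA and highest in CLA+GW6471.

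Ratios were taken as log2 of FPKM + 0.1, on which differences of low genes come out too small, for the 15 genes with a mean of at least 1 FPKM. A gene was called higher or lower from 1.5-fold. The 95% counting intervals, from estimated reads and without the added 0.1, cover counting error only and say nothing of the spread between animals. The median log2 ratio over all 10355 genes of at least 1 FPKM was within 0.00895 of 0 in each comparison.

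CLA against Vehicle asks what the diet did without the antagonist. Of the 15 genes, 8 were called higher and 0 lower, where 7.34% of all genes were called higher and 4.97% lower. The median log2 ratio of the 15 was 0.60, against -0.0071 over all genes. The 8 were Fgb, Alb, Afp, Apoc1, Apoe, Hp, Trf and Cp, of which Cp was short of 1.5-fold with libraries scaled to a common FPKM sum (0.57) and with a pseudocount of 1 (0.55), and Hp with the latter (0.45). The log2 ratio of Fgb was 1.61 (95% counting interval 1.52 to 1.70), which is 3.05-fold on the FPKM + 0.1 scale. Alb had 0.96 (0.94 to 0.98), Afp 0.84 (0.82 to 0.87), Apoe 0.80 (0.78 to 0.82) and Trf 0.66 (0.63 to 0.69). The intervals were wide for Apoc1, at 0.84 (-0.08 to 2.03), which spans 0, and for Hp, at 0.74 (0.07 to 1.58), with 25 estimated reads in Vehicle. Rbp4 was the gene below 0, at -0.17 (-0.20 to -0.15). Itih2, C3 and Hpx lay between 0.09 and 0.25.

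GW6471 against Vehicle asks what the antagonist did on the control diet. Here 5 of the 15 genes were called higher and 0 lower, where 3.29% of all genes were called higher and 2.11% lower. The median log2 ratio was 0.48, against -0.0041 over all genes. Apoc1 had 1.32 (95% counting interval 0.45 to 2.45), Fgb 0.93 (0.84 to 1.03), Hp 0.74 (0.09 to 1.59) and Alb 0.65 (0.63 to 0.67). Cp, at 0.58 (0.45 to 0.73), stood exactly at 1.5-fold, and with a pseudocount of 1 Cp (0.54) and Hp (0.45) were short of it. With libraries scaled to a common FPKM sum, 3.87% of all genes were called higher and 1.58% lower. Trf, at 0.51, Afp, at 0.50, Apob, at 0.48, and Apoe, at 0.42, were above 0 and short of that limit. Hpx had -0.35 (-0.48 to -0.24) and Rbp4 -0.10 (-0.13 to -0.08). This comparison and the previous one share the Vehicle library, so a low value there enters both.

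CLA+GW6471 against CLA asks what the antagonist did on the CLA diet. None of the 15 genes was called higher (0) and 9 were called lower, where 6.85% of all genes were called higher and 9.17% lower. The median log2 ratio was -0.68, against 0.0090 over all genes. Fgb had -1.95 (95% counting interval -2.05 to -1.86), Alb -1.09 (-1.11 to -1.07) and Afp -1.08 (-1.11 to -1.06). Apoe had -0.89 (-0.91 to -0.87), Apob -0.76 (-0.93 to -0.64), Cfb -0.74 (-1.09 to -0.45) and Trf -0.68 (-0.71 to -0.65). Apoc1, at -0.74 (-1.80 to 0.21), spans 0, and Azgp1, at -0.59 (-1.20 to -0.08), lay just past the limit and was short of it with either scaling of the libraries (-0.58 both times) and with a pseudocount of 1 (-0.43), as Apoc1 was with the latter (-0.52). Rbp4 was the gene above 0, at 0.37 (0.34 to 0.40). The CLA library enters this comparison and the first.

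CLA+GW6471 against GW6471 asks what CLA did in the presence of the antagonist. No gene of the 15 was called higher (0) and 5 were called lower, where 2.83% of all genes were called higher and 3.89% lower. The median log2 ratio was -0.51, against 0.0041 over all genes. Fgb had -1.27 (95% counting interval -1.38 to -1.18), Apoc1 -1.22 (-2.21 to -0.33) and Alb -0.78 (-0.81 to -0.76). Afp had -0.74 (-0.77 to -0.71) and Apob -0.72 (-0.89 to -0.59). Apoe, at -0.50, Trf, at -0.53, and Cp, at -0.54, were lower by less than 1.5-fold. With libraries scaled to a common FPKM sum, Trf (-0.59) and Cp (-0.60) passed that limit, which made 7 genes lower, where 1.93% of all genes were then called higher and 5.29% lower. With a pseudocount of 1, Apob (-0.55) was short of it. Rbp4 had 0.30 (0.27 to 0.32), Azgp1 0.15 (-0.48 to 0.79) and Hpx 0.13 (0.008 to 0.25). The plot of ratios sets the 4 comparisons side by side.

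**Figure D5:**
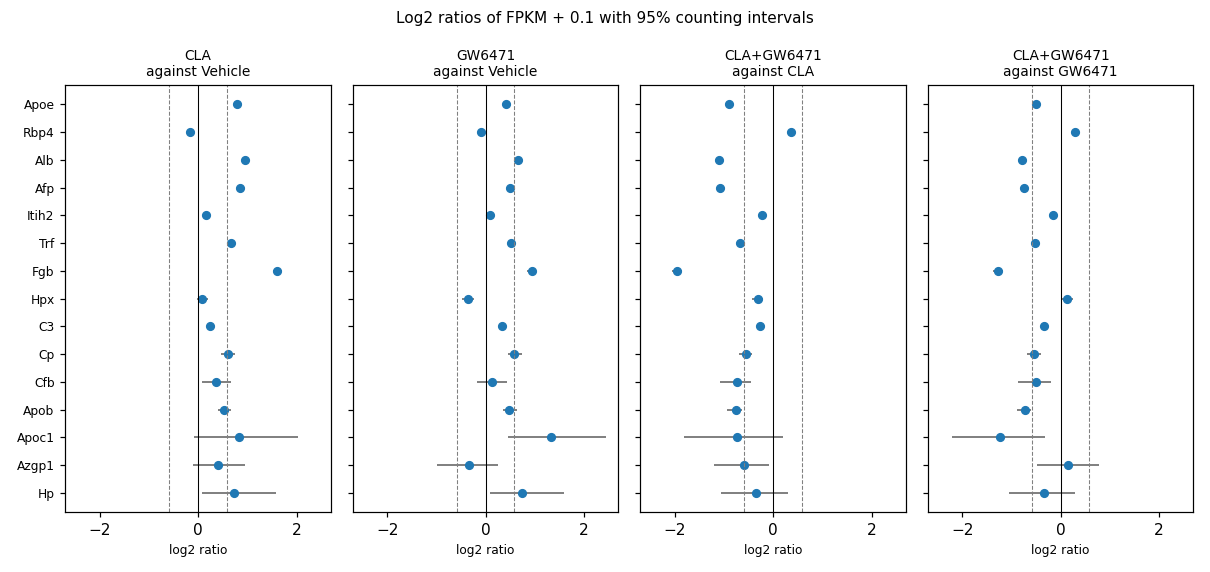
Log2 ratios of FPKM + 0.1 of the 15 genes with a mean of at least 1 FPKM in the 4 comparisons, ordered by mean FPKM from the top; bars are 95% counting intervals and dashed lines mark 1.5-fold. Fgb lies farthest from 0 on the right in CLA against Vehicle (1.61) and on the left in CLA+GW6471 against CLA (-1.95), and Rbp4 lies on the other side of 0.

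The remaining secreted proteins of the liver were examined in lists of 87 further genes, of which 58 had a row, 33 averaged at least 1 FPKM and 6 at least 100 FPKM. Of the 33, 11 were called higher and 1 lower in CLA against Vehicle (7.34% and 4.97% of all genes), with a median log2 ratio of 0.35. The counts were 6 and 1 for GW6471 against Vehicle (3.29% and 2.11% of all genes), with a median of 0.17. CLA+GW6471 against CLA gave 2 and 15 (6.85% and 9.17% of all genes) with -0.48. CLA+GW6471 against GW6471 gave 1 and 5 (2.83% and 3.89% of all genes) with -0.34. The highest acute-phase and carrier genes were Igfbp1 (1395 FPKM), Igfbp4 (794 FPKM) and Ecm1 (406 FPKM), the first 2 being binding proteins of insulin-like growth factors. Lbp, which binds bacterial lipopolysaccharide, had 31.56 FPKM in Vehicle, 66.70 in CLA, 54.61 in GW6471 and 30.93 under CLA+GW6471. Of the acute-phase genes, Crp averaged 0.0225 FPKM, Orm2 0.035 FPKM and Saa4 0.005 FPKM.

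In the further complement list, C1s (60.9 FPKM), C1ra (26.1 FPKM) and Cfi (17.7 FPKM) were the highest. For C4bp, CLA stood above Vehicle by a log2 ratio of 0.96, and the log2 ratio of CLA+GW6471 to CLA was -1.27. Of the further coagulation genes, Pros1 (27.9 FPKM), Hgfac (23.7 FPKM) and Fgl1 (15.1 FPKM) were the highest. Fgl1, a fibrinogen-like secreted protein, had 9.21, 22.24, 19.38 and 9.65 FPKM in Vehicle, CLA, GW6471 and CLA+GW6471. For Proc, the anticoagulant protein C, the log2 ratio of CLA+GW6471 to CLA was -1.22.

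Of the further serpins, Serpinb9 averaged 14.6 FPKM and Serpine2 7.62 FPKM, and Serpina7, the thyroxine carrier, had 0.72, 1.82, 1.60 and 0.75 FPKM in Vehicle, CLA, GW6471 and CLA+GW6471. Among the lipoprotein genes outside the 45, Clu averaged 1071 FPKM, the highest of that list. Angptl4, an inhibitor of lipoprotein lipase and a known PPAR target, had 11.47 FPKM in Vehicle, 10.15 in CLA, 26.76 in GW6471 and 32.39 under CLA+GW6471. It was high in both libraries labelled with GW6471, unlike Alb and Fgb. Apoc2, the activator of lipoprotein lipase, had a log2 ratio of CLA+GW6471 to CLA of -1.09.

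Markers of other cell types were summed beside these results. The 7 bile duct genes, of which 5 reached 1 FPKM, summed to 405 FPKM in CLA+GW6471, 474 in Vehicle, 544 in GW6471 and 657 in CLA, led by Spp1 (425 FPKM), Sox9 (48.8 FPKM) and Krt7 (21.0 FPKM), with Krt19 at 0.14 FPKM. Of the 9 stellate cell and fibroblast genes, 7 had a row and 6 were under 1 FPKM, and their sum of 1149 to 1507 FPKM was almost entirely Dcn (1323 FPKM), with Des at 0.75 FPKM and Col1a1 at 0.258 FPKM. These sums were highest in CLA and lowest in CLA+GW6471, as Alb and Fgb were, but most of the single bile duct genes did not follow their sum. Of the 5 bile duct genes of at least 1 FPKM, 2 lay above 0 and 3 below in CLA against Vehicle (median log2 ratio -0.02). In CLA+GW6471 against GW6471, 4 lay above 0 and 1 below (median 0.09). The 5 listed of 8 macrophage genes, 2 of them of at least 1 FPKM, summed to 44.5 to 64.6 FPKM, led by Cd68 (27.1 FPKM), Cd14 (22.9 FPKM) and Csf1r (0.745 FPKM), and the 5 intestinal genes, likewise 2, to 46.9 to 64.9 FPKM, led by Vil1 (44.5 FPKM), Lgr5 (10.4 FPKM) and Fabp2 (0.133 FPKM). Keratinocyte genes reached 7.84 FPKM, led by Krt5 (3.25 FPKM), Ivl (2.23 FPKM) and Krt10 (1.12 FPKM), and adipocyte genes 12.2 FPKM, led by Fabp4 (6.22 FPKM), Cidec (3.51 FPKM) and Adipoq (0.03 FPKM). Cidec had log2 ratios of -1.56 in CLA against Vehicle and, for CLA+GW6471 against CLA, of 1.47, and Fah one of -1.08 in the latter. Exocrine pancreas genes reached 5.8 FPKM, all from Cela1, and skeletal muscle genes 0.49 FPKM, from Tnnt3 and Acta1. The endothelial and blood lists were led by Pecam1 (0.695 FPKM), Kdr (0.0125 FPKM), Hba-a1 (1.90 FPKM), Cd79a (0.0775 FPKM) and Alas2 (0.0775 FPKM), and Tek averaged 0.0075 FPKM. Their part in the differences between libraries was not tested.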

How the data were processed

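Per the labels, livers were flash frozen, RNA was extracted with Trizol and libraries were made with an Illumina TruSeq kit. With BWA, Bowtie and Cufflinks, whose versions the sources do not state, and with mm9 as the genome, the authors made and deposited FPKM with 2 decimals, in 1 column per condition. The unit was taken from a supplementary sheet of the study that heads the same values FPKM, since the table names none. How the 15500 genes of the table were selected is not stated in the sources. An FPKM listed as 0 can be a failed estimate. No column of values was left unmapped.

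Genes were matched by symbol, and groups came from the treatment label. Differences were log2 ratios of FPKM + 0.1, called from 1.5-fold among genes with a mean of at least 1 FPKM, which 15 of the 40 listed genes reached. No test was made, since each condition has 1 library. As the length of a gene, its longest protein-coding transcript in GENCODE vM1 (mm9) was used, which held all 40 genes. The depth was the step of FPKM times length that best lined up low values of 499 genes under 1000 nt with a single transcript. The counting intervals (95%, exact Clopper-Pearson) rest on reads estimated in this way, are approximate and cover counting error only. Promoter windows came from RefSeq (GRCm38.p6 table) and were placed in mm9 by exact match. The steps were tested on simulated libraries with known depth and fold changes. The scripts ran in Python 3.11.15 with matplotlib 3.10.9, scipy 1.17.1, pandas 2.3.3 and numpy 2.4.6.

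The genes and lists were chosen with earlier results of these data known. Every one of the 45 genes is named. All libraries are given for genes with a mean of at least 10 FPKM, for those of at least 1 FPKM that differ by 1.5-fold in a comparison, for the fibrinogen chains and for Ttr, and from each further list the 3 highest genes and up to 3 that differ by at least 2-fold are named. A few genes of the further lists that this rule would name are not reported here. The alternatives were pseudocounts of 0.01 and 1, no filter or a mean of at least 5 FPKM, 2-fold, scaling by the sum of FPKM or by the median ratio, levels by the lowest or highest library, and sets without genes that have near-identical copies, without Alb or without Alb and Trf. Apoc2, Apoc4, Trf, Cp, Cfb and Apoh overlap other genes in the annotation.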

Additional observations from a re-analysis of the deposited data

Results flagged for a closer look

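The effect of CLA was measured without GW6471 (CLA against Vehicle) and with it (CLA+GW6471 against GW6471), in libraries that are not shared, and 4 of the 15 genes of at least 1 FPKM were past 1.5-fold in both, higher without GW6471 and lower with it. In this order it held for 311 of all 10355 genes of that level. Alb had a log2 ratio of 0.96 without GW6471 and -0.78 with it, and Afp had 0.84 and -0.74. Fgb had 1.61 and -1.27. Apoc1 had 0.84 and -1.22, with 13 to 35 estimated reads in the 4 libraries. In each comparison a single library stands on either side, so whether the effects differ was not tested.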

How the results depend on the processing

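No paired analysis was possible because each condition has 1 library and the groups share only the number 1. Of 240 ratios of single genes under another pseudocount or scaling, 221 moved by less than their counting interval reaches to either side, 19 moved by more and 0 changed sign past the fold. Of 110 other values, 86 moved within a set tolerance (counts, levels and shares by at most 1.5 times, median ratios by less than the typical counting interval reaches to either side) and 24 moved by more. The share of all genes called under the same rule stands in parentheses. At 2-fold, 1 gene was higher in CLA (1.79%) and 1 in GW6471 (0.56%) against Vehicle, while CLA+GW6471 had 3 genes lower against CLA (2.67%) and 2 against GW6471 (0.802%). With a mean of at least 5 FPKM, 3 were higher in GW6471 against Vehicle (2.09%), while CLA+GW6471 had 5 genes lower against CLA (7.28%) and 3 against GW6471 (2.5%). With no filter, which lets in values of a few reads, 11 were higher (9.41%) and 2 lower (6.95%) in CLA against Vehicle, and GW6471 against Vehicle had 9 higher (5.63%) and 4 lower (5.23%). In CLA+GW6471 against CLA, 3 were then higher (8.61%) and 14 lower (1705 of 15500 genes), and against GW6471, 2 higher (5.87%) and 9 lower (6.14%). The median log2 ratios were then 0.26 for CLA and 0.27 for GW6471 against Vehicle, -0.29 in CLA+GW6471 against CLA and -0.28 against GW6471. With a pseudocount of 1, the median was 0.45 in CLA against Vehicle and, for CLA+GW6471 against CLA, -0.52, and 3 genes were higher in GW6471 against Vehicle (1.94%). By their highest library, 8 genes lay between 1 and 10 FPKM. The median level was 0.99 FPKM over the genes above 0 in every library, and 14.3 FPKM over all genes of at least 1 FPKM. The 12 genes of the set with a mean under 0.1 FPKM had at most about 7 estimated reads in any library, too few to tell the libraries apart.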

Other observations

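In 12 of the 15 genes of at least 1 FPKM, the CLA and GW6471 libraries held the 2 highest values, which was so for 30.3% of all 10355 genes of that level. The exceptions were Rbp4, Hpx and Azgp1. This order was noticed in the values and is given as a description.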
